A study of Mus musculus with 16 samples.

Results

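Glycolysis was followed through 10 genes that span the pathway from glucose entry to lactate: the glucose transporter Slc2a1, the hexokinases Hk1 and Hk2, the phosphofructokinases Pfkl and Pfkp, the aldolase Aldoa, the phosphoglycerate kinase Pgk1, the enolase Eno1, the pyruvate kinase Pkm and the lactate dehydrogenase Ldha. These were 10 of the 37153 genes tested on the array, where a probe target without a gene name also counted as a gene. Of the 37153, 20126 had a gene symbol. The shares of all genes given beside the members are over named and unnamed targets together, some of them near background. Each was found through the RefSeq identifier of its probe, and where a gene had several probes the brightest was used. All 10 probes were well above background on all 16 arrays, with 0 saturated spots and 0 outlier spots.

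The study asked how loss of DNA binding by the transcription factor Sp1 alters blood formation from mouse embryonic stem (ES) cells. RNA of 4 successive populations was hybridised to one-colour arrays in both genotypes, with 2 arrays for each of 8 groups. Sp1+/+ cells were the E14 ES line. Sp1-/- cells carried a mutated Sp1 locus whose shortened product lacks the domain that contacts DNA; they were 1 ES line, so that its own history and the mutation cannot be told apart. Both lines were listed under the strain name C57BL/6. Flk1+ cells, mesoderm that includes the haemangioblast (the common precursor of blood and endothelium), were taken from embryoid bodies by magnetic selection. They were then plated into blast culture, from which the first stage of haemogenic endothelium (HE1; KIT+ CD41- Tie2+), the second stage (HE2; KIT+ CD41+ Tie2+) and the blood progenitor (KIT+ CD41+ Tie2-) were sorted by flow cytometry. The 4 populations thus differed in culture time and in the way they were purified as well as in cell type.

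Glycolysis converts glucose to pyruvate in the cytosol and yields ATP without oxygen. Hexokinase traps glucose inside the cell, phosphofructokinase commits it to the pathway, and pyruvate kinase and lactate dehydrogenase carry out the last steps. Many of these genes are classical targets of the hypoxia-inducible factor HIF1, whose binding site contains the core ACGTG or GCGTG, and several promoters of the pathway hold the GC box that Sp1 and its relatives bind.

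Sp1 itself, measured first as a check of the labels, read 12.14 to 12.56 on the log2 scale on the 8 Sp1+/+ arrays and 9.03 to 10.29 on the 8 Sp1-/- arrays. It was lower by 2.28 (Flk1+), 3.28 (HE1), 2.56 (HE2) and 2.89 (progenitor) log2 units in the mutant, with adjusted p from limma between 2.24e-06 and 6.04e-05. Of its relatives, Sp4 was higher in all 4 populations (averaged log2 difference 1.49 ± 0.07, SE) and Sp5 was higher in Flk1+ cells alone among the single populations (1.92 ± 0.44). The labelled populations carried their markers: the mean log2 value of 6 primitive streak and mesoderm genes was 12.37 to 13.25 in Flk1+ cells and 6.31 to 7.88 elsewhere, that of 7 endothelial genes was highest in HE1 (12.96 to 13.43), and that of 8 erythroid genes was highest in progenitors (12.82 to 15.57). Each genotype filled 1 slide of 8 arrays, scanned in its own session, so slide, scan and genotype cannot be told apart in any comparison of genotypes. In each comparison of populations within a genotype the arrays shared a slide. Each population kept its own array column on both slides, however, so column and population cannot be told apart. Fewer cells that express a gene and less RNA per cell cannot be told apart in such bulk samples.

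Since the study turns on a factor that binds GC boxes, the 250 bases before each annotated start of the 10 genes were searched for the GC box GGGCGG and the cores ACGTG and GCGTG on both strands; a match of ACGTG may overlap its own reverse complement within CACGTG, and a GC box may overlap GCGTG. The 10 genes had 17 starts in the RefSeq promoter table (build GRCm38.p6). A GC box lay in 10 of the 17 windows (58.8%), against 32.7% of all 32851 windows and 42.6% of the 21263 windows of protein-coding genes. Hk1 and Pfkl had none in any window. ACGTG or GCGTG lay in 14 of 17 windows (82.4%) and in at least 1 window of all 10 genes, against 38.6% of all windows and 44.0% of the protein-coding ones. The members' windows were also richer in G and C (median 62.8%, against 52.4% and 55.6%), and some starts of Aldoa and of Eno1 lie so close that their windows overlap. The upstream windows of the 5 genes that changed with genotype in a single population are printed 5′ to 3′ on the gene's strand, for the start listed first in each gene, with every match in capitals.
Slc2a1, chr4:119108495-119108744, plus strand: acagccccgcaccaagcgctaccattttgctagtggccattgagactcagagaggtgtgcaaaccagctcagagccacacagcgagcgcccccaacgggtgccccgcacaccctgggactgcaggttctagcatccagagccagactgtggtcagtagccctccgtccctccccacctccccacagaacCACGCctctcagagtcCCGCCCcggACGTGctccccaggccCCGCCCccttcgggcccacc
Hk1, chr10:62340422-62340671, minus strand: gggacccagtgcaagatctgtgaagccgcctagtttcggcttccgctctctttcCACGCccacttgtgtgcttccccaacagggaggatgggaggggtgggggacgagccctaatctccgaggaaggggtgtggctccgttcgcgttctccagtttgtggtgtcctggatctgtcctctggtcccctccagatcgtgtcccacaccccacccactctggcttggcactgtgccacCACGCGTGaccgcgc
Aldoa, chr7:126799179-126799428, minus strand: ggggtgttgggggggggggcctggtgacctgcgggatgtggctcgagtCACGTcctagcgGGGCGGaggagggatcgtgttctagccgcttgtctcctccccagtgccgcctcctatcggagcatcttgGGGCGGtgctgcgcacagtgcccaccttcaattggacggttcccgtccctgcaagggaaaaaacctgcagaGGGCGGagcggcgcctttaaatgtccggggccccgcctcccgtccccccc
Pgk1, chrX:106186850-106187099, plus strand: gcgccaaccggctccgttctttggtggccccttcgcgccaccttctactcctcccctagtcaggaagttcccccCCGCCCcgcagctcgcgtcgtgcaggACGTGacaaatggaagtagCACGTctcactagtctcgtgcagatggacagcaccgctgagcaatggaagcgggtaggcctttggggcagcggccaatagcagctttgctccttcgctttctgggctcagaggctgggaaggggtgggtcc
Pkm, chr9:59656326-59656575, plus strand: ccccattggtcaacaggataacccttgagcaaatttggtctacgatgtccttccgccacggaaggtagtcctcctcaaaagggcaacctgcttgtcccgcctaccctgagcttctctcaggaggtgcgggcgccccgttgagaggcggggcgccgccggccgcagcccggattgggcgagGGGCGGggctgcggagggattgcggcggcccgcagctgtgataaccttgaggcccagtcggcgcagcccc
In these windows Slc2a1 had 2 GC boxes, Aldoa 3, and Pgk1 and Pkm 1 each, whereas Hk1 had 0. Of the cores, Pgk1 held 2 matches of ACGTG. Hk1 held 3 matches of GCGTG, among them overlapping ones on opposite strands within CACGCGTG. Slc2a1 held 1 match of each core, Aldoa 1 of ACGTG, and Pkm 0 of either. A match to these letters is a description of the sequence and not a bound site.

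In wild-type cells the main change in glycolytic gene expression came at the first step, from Flk1+ to HE1. Of the 10 members, 6 fell and 1 rose (adjusted p of 0.05 or less by limma, the rule used for "changed" throughout), while 24.7% of all genes changed at this step, 11.1% upwards and 13.6% downwards. The median difference of the members was -0.64 on the log2 scale. Pfkl, the liver-type phosphofructokinase, was 12.77 and 12.39 in Flk1+ cells and 10.52 and 10.45 in HE1, a 4.27-fold fall (log2 difference -2.09 ± 0.18, SE, n = 2 per group; adjusted p from limma 8.54e-06). Hk2, the inducible hexokinase, went from 12.91 and 12.78 to 11.25 and 11.34 (-1.55 ± 0.12). Pkm fell by 1.34 ± 0.09, Ldha by 0.89 ± 0.07, Eno1 by 0.71 ± 0.09 and Aldoa by 0.56 ± 0.11. For each of these 6 genes both Flk1+ values lay above both HE1 values, as the groups did not overlap for 55.9% of all genes. Pfkp (-0.57 ± 0.20, adjusted p from limma 0.0559), Pgk1 (-0.40 ± 0.16, adjusted p from limma 0.0935) and Slc2a1 (0.54 ± 0.35, adjusted p from limma 0.346) did not pass. Other, dimmer Ldha probes gave larger differences at this step than the brightest (-1.62 and -1.44).

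Hk1, the hexokinase of most adult tissues including red cells, moved the opposite way. Wild-type Flk1+ cells read 10.24 and 10.95. The HE1 arrays read 12.41 and 12.68, those of HE2 12.23 and 12.70, and those of progenitors 12.62 and 13.16. Every array after the Flk1+ stage was above both Flk1+ arrays, whereas neither the step from HE1 to HE2 nor that from HE2 to progenitor passed. The rise from Flk1+ to HE1 was 3.86-fold (1.95 ± 0.27, adjusted p from limma 0.000237), and that from Flk1+ to progenitors 4.91-fold (2.30 ± 0.27). A second, dimmer Hk1 probe rose by 0.98 and 1.37 log2 units at the same steps, so that the direction was shared but the size was not.

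**Figure D1:**
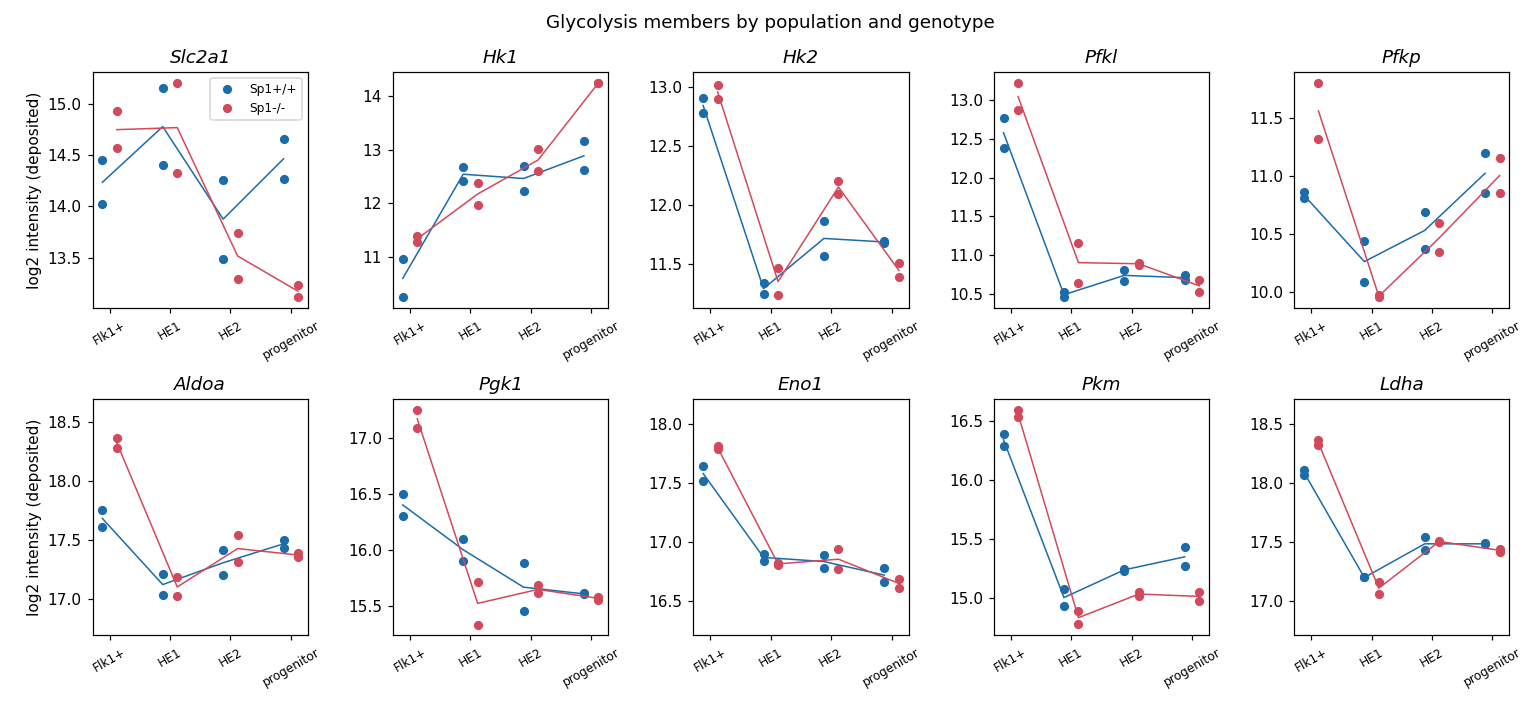
Deposited log2 intensity of each of the 10 members (panels, each with its own scale) in the 4 populations. Each point is 1 array (2 per group, blue Sp1+/+ and red Sp1-/-) and lines join the group means. Most members are highest in Flk1+ cells, Hk1 climbs from left to right, and Slc2a1 ends low in Sp1-/- progenitors (13.11 and 13.23).

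After HE1 the wild-type levels changed little. From HE1 to HE2 only Hk2 (0.42 ± 0.12, adjusted p from limma 0.0424) and Ldha (0.29 ± 0.07, adjusted p from limma 0.0318) rose, against 10.7% of all genes that changed, 5.67% upwards. The Hk2 call was lost in 13 of the 16 fits that left out 1 array (0.27 without Sp1+/+ HE2 replicate 1, and 0.57 at the highest), and that of Ldha in 6 of 16, among them those without either Sp1+/+ HE1 or either Sp1+/+ HE2 array (0.23 to 0.34). From HE2 to progenitor 0 of the 10 members changed by limma, with differences from -0.11 to 0.59, where 3.03% of all genes changed. At an unadjusted p under 0.05 the count was 1, Pfkp (0.50 ± 0.20, adjusted p from limma 0.257), where 14.8% of all genes passed that limit, and the methods' t-test, for which no array threshold is stated and to which a limit of 0.01 on the unadjusted p was applied, called 0. Over the whole course from Flk1+ to progenitor, Hk1 rose and 6 members fell, among them Pfkl (-1.88 ± 0.18), Hk2 (-1.15 ± 0.12), Pkm (-0.99 ± 0.09), Eno1 (-0.86 ± 0.09) and Pgk1 (-0.79 ± 0.16), beside 21.2% of all genes (10.4% upwards, 10.8% downwards). Pfkp (0.19 ± 0.20), Slc2a1 (0.23 ± 0.35) and Aldoa (-0.21 ± 0.11) ended at levels that did not differ from those of Flk1+ cells beyond the error of the comparison.

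In Sp1-/- cells most members also fell at the first step. From Flk1+ to HE1, 8 members fell and Hk1 rose, with a median of -1.42, where 28.5% of all genes changed, 12.6% upwards and 15.9% downwards. Pgk1 fell by 1.65 ± 0.16 and Pfkp by 1.60 ± 0.20, and Aldoa by 1.22 ± 0.11. Pfkl (-2.15 ± 0.18), Hk2 (-1.60 ± 0.12) and Pkm (-1.72 ± 0.09) fell as well, and Hk1 rose by 0.84 ± 0.27 (adjusted p from limma 0.0357). This last call was lost without any 1 of 5 mutant arrays, among them both Flk1+ arrays and HE1 replicate 2, without which it was 0.63. The second Pfkp probe, which was dim (group means 7.42 to 8.14), did not show the fall of the brighter one (0.18 at this step). Whether this step by itself differed between genotypes was not tested. An F test asked only whether the effect of the mutation differed anywhere among the 4 populations. Only Pgk1 of the 10 members passed it (adjusted p from limma 0.0369).

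From HE1 to HE2 in the mutant, Hk2 (0.80 ± 0.12) and Ldha (0.39 ± 0.07) rose again and Slc2a1 fell (-1.25 ± 0.35, adjusted p from limma 0.0294), with 18.6% of all genes changed (10.5% upwards, 8.06% downwards). Slc2a1 was 15.21 and 14.33 in mutant HE1 and 13.74 and 13.29 in HE2, so that the groups did not overlap but the HE1 arrays differed from each other by more than for any other member. Without HE1 replicate 1 the Slc2a1 difference was -0.81 (adjusted p from limma 0.157), and without HE2 replicate 2 it was -1.03 (adjusted p from limma 0.184). From HE2 to progenitor Hk1 rose by a further 1.45 ± 0.27 and Hk2 fell (-0.70 ± 0.12), where 15.3% of all genes changed (7.35% upwards, 7.95% downwards). Over the whole course in the mutant, Hk1 rose 7.57-fold (2.92 ± 0.27) and the other 9 members fell, from Pfkl at -2.45 ± 0.18 to Pfkp at -0.56 ± 0.20, with 33.8% of all genes changed (16.8% upwards, 17% downwards). Slc2a1 (-1.58 ± 0.35), Aldoa (-0.95 ± 0.11) and Pfkp passed here and not in the wild type, a difference that was tested only through the F test. The Pfkp call was lost in 9 of the 16 fits that left out 1 array (-0.81 to -0.31 over all 16).

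**Figure D2:**
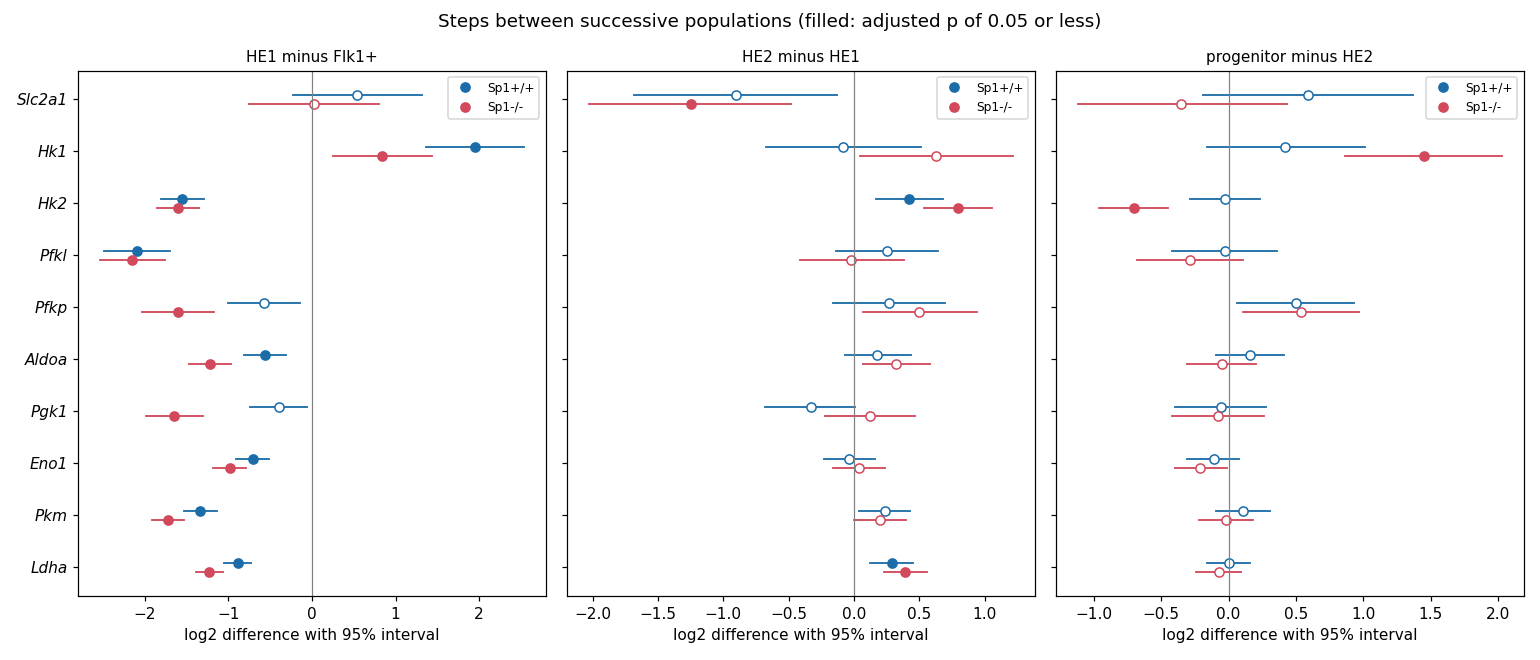
Log2 difference of each member (rows) for the 3 steps between successive populations (panels), with 95% confidence intervals from limma; blue Sp1+/+, red Sp1-/-, filled points changed at an adjusted p of 0.05 or less. At the first step most members lie to the left of 0 and Hk1 to the right in both genotypes. The intervals for several members, among them Pgk1, Pfkp, Aldoa, Pkm and Ldha, lie further left in Sp1-/- cells. Of the 10 members only Pgk1 passed the F test on the effect of the mutation in the 4 populations, which does not test a single step. A second, dim Pfkp probe gave 0.18 at this step in Sp1-/- cells.

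In Flk1+ cells, the earliest population, the mutant had higher values for all 10 members (9 of 10 where the processed scanner signal, divided by the 75th percentile of its array, was used, with Hk2 at -0.10), but only Pgk1 and Aldoa passed the test. The members' differences ran from 0.11 to 0.77 with a median of 0.49, where the median over all genes was 0.01. The 2 calls stand against 6.97% of all genes called, 3.34% as higher. At an unadjusted p under 0.05 in limma the count was 8 of 10, where 20% of all genes passed that limit. Pgk1, which makes the first ATP of the pathway, was 16.50 and 16.30 in Sp1+/+ and 17.09 and 17.25 in Sp1-/- cells, 1.71-fold higher (0.77 ± 0.16, adjusted p from limma 0.014). Aldoa, which splits fructose bisphosphate, was 17.75 and 17.61 against 18.28 and 18.36, 1.56-fold higher (0.64 ± 0.11, adjusted p from limma 0.00709). In both genes the mutant arrays lay above the wild-type arrays; the groups did not overlap for 9 of the 10 members (all but Hk2) and for 51.6% of all genes.

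Hk1 (10.24 and 10.95 against 11.39 and 11.28; 0.74 ± 0.27, adjusted p from limma 0.138) and Pfkp (10.86 and 10.81 against 11.32 and 11.81; 0.73 ± 0.20, adjusted p from limma 0.0506) had differences of like size that did not pass. Slc2a1 (0.52 ± 0.35), Pfkl (0.47 ± 0.18), Ldha (0.25 ± 0.07), Eno1 (0.22 ± 0.09), Pkm (0.22 ± 0.09) and Hk2 (0.11 ± 0.12) did not pass either. Other, dimmer Ldha probes gave larger differences (0.75 and 0.51), so that the size for Ldha depended on the probe. The Aldoa call was lost without Sp1+/+ replicate 2 (0.57) or Sp1-/- replicate 2 (0.60), and the Pgk1 call without those same arrays (0.67 and 0.69) or Sp1-/- replicate 1 (0.85). With the processed signal, Pgk1 was 0.46 and Aldoa 0.55, and neither passed (adjusted p from limma 0.221 and 0.112). Beside these values, 7 cardiac and smooth muscle markers had a mean log2 value of 9.08 to 9.21 in Sp1+/+ and 9.82 to 9.99 in Sp1-/- Flk1+ cells (2 of 7 higher, 1 lower), 5 pluripotency markers 8.27 to 8.65 and 8.95 to 9.27 (2 of 5 higher), and 6 primitive streak and mesoderm markers 12.37 to 13.25 and 13.01 to 13.25 (1 of 6 higher). All of these muscle, pluripotency and mesoderm markers were above background on both arrays of both groups, and their part in the result was not tested.

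In the haemogenic endothelium no member changed with genotype by limma. At an unadjusted p under 0.05 the count was 2 in HE1 (Pfkl and Pgk1) and 2 in HE2 (Hk2 and Pkm), where 24.3% and 17.8% of all genes passed that limit. The methods' t-test, run as for the wild-type steps, called 0 in HE1 and 1 in HE2. In HE1 the differences ran from -0.48 (Pgk1, ± 0.16) to 0.41 (Pfkl, ± 0.18) with a median of -0.07, and 9.82% of all genes were called. Without Sp1-/- HE1 replicate 1, Pgk1 (-0.67) and Pfkl (0.68) passed (adjusted p from limma 0.0226 and 0.0264). In HE2 the differences ran from -0.36 (Slc2a1) to 0.44 (Hk2, 11.87 and 11.57 against 12.21 and 12.10; adjusted p from limma 0.0583) with a median of 0.02, and 5.64% of all genes were called. Hk2 passed there without any 1 of 3 arrays (Sp1+/+ HE2 replicate 1, where it was 0.58, and both Sp1-/- HE1 arrays, 0.44).

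In progenitors the hexokinase and the glucose transporter moved apart. Hk1 was 12.62 and 13.16 in Sp1+/+ and 14.25 and 14.26 in Sp1-/- progenitors, 2.58-fold higher in the mutant (1.37 ± 0.27, adjusted p from limma 0.00623). Slc2a1, the main glucose transporter of erythroid and many embryonic cells, was 14.66 and 14.27 against 13.11 and 13.23, 2.45-fold lower (-1.29 ± 0.35, adjusted p from limma 0.0337). Pkm was 15.27 and 15.43 against 15.05 and 14.98, lower by a smaller amount (-0.33 ± 0.09, adjusted p from limma 0.0307). The groups did not overlap for these 3 genes and 4 other members, 7 of 10, as for 62.5% of all genes. The 3 calls among 10 stand beside 13.1% of all genes called (6.17% higher, 6.92% lower), and the other 7 members lay between -0.24 (Hk2) and -0.02 (Pfkp). By the study's own rule, an unadjusted p of 0.01 or less and at least a 2-fold change, only Hk1 and Slc2a1 were called in this population, beside 4.11% of all genes, and no member in Flk1+ cells, HE1 or HE2, where it called 1.64%, 2.1% and 1.95% of all genes.

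The second Hk1 probe gave nearly the same difference in progenitors (1.33). The Hk1 call was lost without Sp1+/+ progenitor replicate 1 (1.09, adjusted p from limma 0.0769). The Slc2a1 and Pkm calls were lost on leaving out any 1 of the 4 progenitor arrays, with Slc2a1 at -1.49 to -1.10 and Pkm at -0.42 to -0.25. Markers of cell type moved with genotype in the same arrays. The mean log2 value of 8 erythroid markers was 12.82 in Sp1+/+ replicate 1, 14.22 in Sp1+/+ replicate 2 and 15.57 in both Sp1-/- progenitor arrays, all 8 were above background and did not overlap between the genotypes, with the mutant higher (62.5% of all genes did not overlap), and 3 passed (median difference 2.07). That of 7 endothelial markers was 9.77 to 10.96 against 8.58 to 8.91 (3 lower; Emcn not above background in mutant progenitors), and that of 7 cardiac and smooth muscle markers 10.33 to 10.65 against 8.64 to 8.83 (3 lower). Of 7 myeloid and leukocyte markers 4 were higher. Hk1 and the erythroid mean were both higher in Sp1+/+ replicate 2 than in replicate 1, which is a comparison of only 2 arrays. The part of these markers in the Hk1 and Slc2a1 results was not tested.

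**Figure D3:**
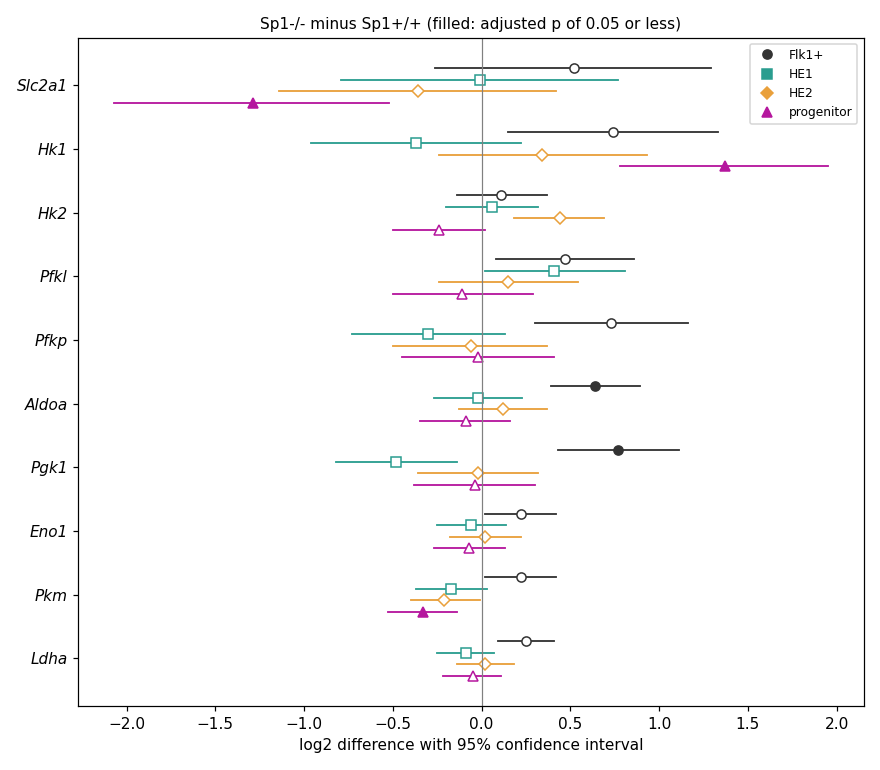
Log2 difference Sp1-/- minus Sp1+/+ of each member (rows) in the 4 populations (symbols), with 95% confidence intervals from limma; filled symbols passed at an adjusted p of 0.05 or less. All 10 Flk1+ values (circles) lie to the right of 0 (with the processed signal, Hk2 was -0.10), and the progenitor values (triangles) cluster near 0 except for Hk1 (1.37), Slc2a1 (-1.29) and Pkm (-0.33).

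Averaged over the 4 populations, only Hk1 differed between genotypes (0.52 ± 0.13, adjusted p from limma 0.0142), beside 26.2% of all genes (13.2% higher), and its HE1 value had the other sign (-0.37 ± 0.27). A second probe gave 0.37 (adjusted p from limma 0.0512). An F test asked whether the effect of the mutation differed between populations. Pgk1 was the only member to pass (adjusted p from limma 0.0369), beside 4.16% of all genes: the Flk1+ difference was 0.77 ± 0.16 and that of HE1 -0.48 ± 0.16, and both later populations lay near 0 (-0.02 for HE2, -0.04 for progenitors). Pgk1 was still called in 4 of the 16 fits that left out 1 array, with adjusted p from limma between 0.0159 and 0.139. For the others the adjusted p from limma was 0.0661 (Aldoa), 0.089 (Hk1), 0.095 (Pkm), 0.155 (Hk2), 0.174 (Pfkp), 0.2 (Slc2a1), 0.23 (Ldha), 0.47 (Eno1) and 0.475 (Pfkl).

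Across the 16 arrays most members rose and fell together, with Pearson's r between pairs of members up to 0.96. Slc2a1 followed them only weakly (r -0.14 with Pfkp to 0.36 with Pgk1, Hk1 apart). Hk1 had a negative r with every other member, from -0.82 with Eno1 to -0.08, near 0, with Pfkp. These arrays share slides, populations and normalisation, and the values describe the 8 groups rather than independent samples. The 5 genes outside all lists whose values followed the members' mean centred profile most closely were Ell3 (r = 0.974), Exd1 (0.974), Ppp1r3c (0.971), Fbxo27 (0.969) and Pxylp1 (0.964), over 16 arrays. That mean profile was 0.33 in both wild-type and 0.72 and 0.87 in both mutant Flk1+ arrays, and between -0.35 and -0.01 on every other array.

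The rest of the pathway shared the fall after the Flk1+ stage but not the pattern with genotype. Of 14 other glycolytic enzymes, 7 fell and 0 rose from Flk1+ to HE1 in each genotype, where 13.6% (Sp1+/+) and 15.9% (Sp1-/-) of all genes fell. Tpi1, the triose phosphate isomerase, fell by 1.16 ± 0.11 in Sp1+/+ and 1.38 ± 0.11 in Sp1-/- cells, and Pgam1, the phosphoglycerate mutase, by 0.93 ± 0.12 and 1.44 ± 0.12. Gapdh, often used as a reference gene, did not pass (-0.08 ± 0.08 and -0.15 ± 0.08), nor did Gpi1, which makes fructose 6-phosphate (0.20 ± 0.12 and -0.20 ± 0.12). With genotype, Gpi1 was higher in Flk1+ cells (0.56 ± 0.12), as Pgk1 and Aldoa were, whereas Gapdh was 0.16 ± 0.08, Pgam1 0.33 ± 0.12 and Tpi1 -0.04 ± 0.11, none of which passed.

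Several isoforms of member enzymes with narrower expression were lower in the mutant in 1 or more populations. Eno2, the neuronal enolase, was lower in all 4 populations, by 1.18 ± 0.15 in HE2 and by 0.69 ± 0.15 in progenitors. Eno3, the muscle enolase, was 11.68 and 11.61 against 10.60 and 10.47 in progenitors (-1.11 ± 0.11) and also lower in HE2 (-0.61 ± 0.11). Ldhb, the heart-type lactate dehydrogenase, was 10.91 and 10.92 against 9.37 and 9.40 in progenitors (-1.53 ± 0.17), lower in HE2 (-0.78 ± 0.17), and 0.61 ± 0.17 in Flk1+ cells, which did not pass. Aldoc, the brain aldolase, was lower in Flk1+ cells (-1.12 ± 0.23). The ubiquitous counterparts Eno1 and Ldha were not called in any population by limma on the brightest probe. In Flk1+ cells the brightest Ldha probe gave 0.25, and dimmer ones 0.75 and 0.51. Among all 14, the mutation raised 1 and lowered 2 at the Flk1+ stage. The counts were 1 and 1 for HE1, 0 and 3 for HE2, and 1 and 3 for progenitors. These stand beside 6.97% (Flk1+), 9.82% (HE1), 5.64% (HE2) and 13.1% (progenitor) of all genes changed.

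**Figure D4:**
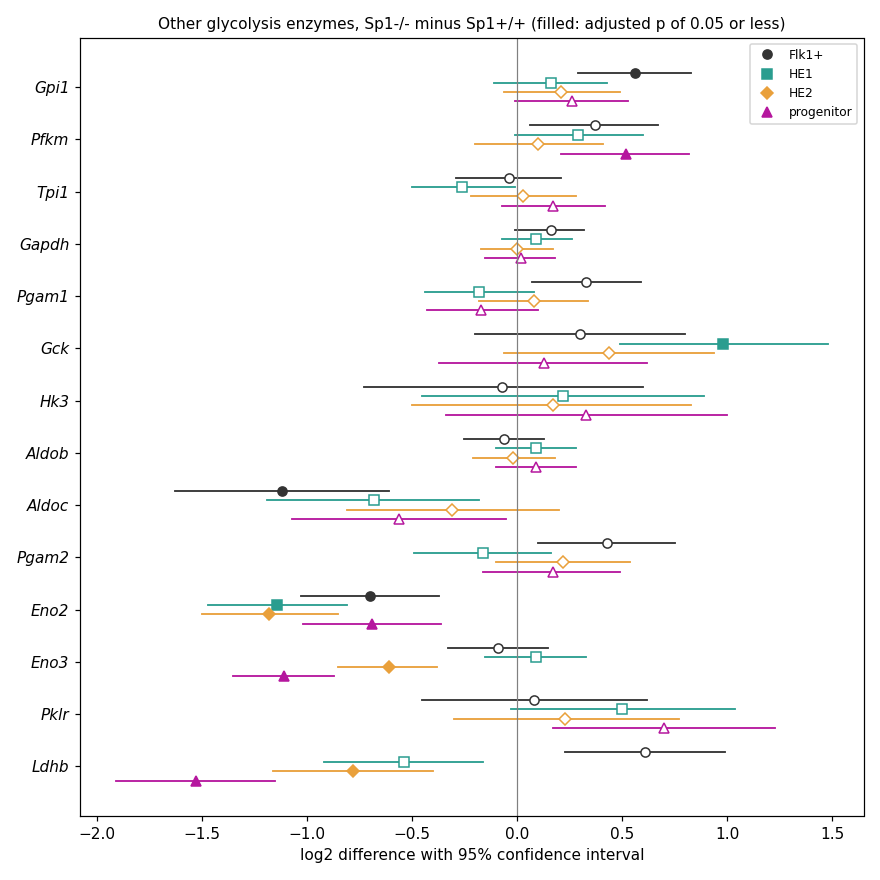
Log2 difference Sp1-/- minus Sp1+/+ of the 14 other glycolytic enzymes (rows) in the 4 populations (symbols), with 95% confidence intervals from limma; filled symbols passed at an adjusted p of 0.05 or less. Eno2 lies left of 0 in all 4 populations, Eno3 and Ldhb in HE2 and progenitors, and Gapdh stays near 0.

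Of 7 further hexose and lactate transporters, only Slc2a4, the insulin-responsive glucose transporter, changed with genotype in a single population, with lower values in Flk1+ cells (-0.54 ± 0.12) and HE2 (-0.74 ± 0.12). Its probe had outlier spots on 3 arrays, and its mean in mutant HE2 was low (6.66). At an unadjusted p under 0.05 in limma 4 of the 7 passed in progenitors, where 25.5% of all genes did. Among 15 enzymes that control the pathway or the fate of pyruvate, Pfkfb4, a bifunctional enzyme that sets the level of fructose 2,6-bisphosphate, was 11.05 and 11.82 in Sp1+/+ and 13.23 and 13.14 in Sp1-/- progenitors (1.75 ± 0.22). Its relative Pfkfb3 was higher in mutant Flk1+ cells (0.67 ± 0.17) and lower in mutant progenitors (-0.78 ± 0.17). Pdk4, a kinase that shuts off pyruvate dehydrogenase, was lower in HE1 (-1.03 ± 0.20), and Bpgm, which makes the 2,3-bisphosphoglycerate of red cells, was lower in HE1 (-0.51 ± 0.12) and higher in progenitors (0.58 ± 0.12). In all, 1 of the 15 rose in Flk1+ cells, 5 fell in HE1, 0 changed in HE2 by limma (4 at an unadjusted p under 0.05, as for 17.8% of all genes), and 2 rose and 1 fell in progenitors. The shares of all genes changed by limma were 6.97% (Flk1+), 9.82% (HE1), 5.64% (HE2) and 13.1% (progenitor). None of 7 pentose phosphate enzymes passed by limma in a single population (1 or 2 in each at an unadjusted p under 0.05, a limit passed by 20% of all genes at the Flk1+ stage and 25.5% at the progenitor stage). Averaged over the 4 populations, Rpe (-0.37 ± 0.12), G6pdx (-0.27 ± 0.06) and Pgd (-0.18 ± 0.06) were lower. That average called 26.2% of all genes (13.2% higher).

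Regulators and other targets of the hypoxia pathway did not move one way. Of 12 HIF and Myc regulators, Hif1a itself did not pass in any population (-0.41 to -0.01), Mycn was lower in progenitors (-1.53 ± 0.20), Egln3, an oxygen-sensing prolyl hydroxylase, was lower in HE1 (-0.90 ± 0.15) and progenitors (-1.09 ± 0.15), Egln2 was higher in HE1 (0.54 ± 0.13), and Vhl, which marks HIF proteins for destruction, was lower in HE2 (-0.50 ± 0.11) and progenitors (-0.49 ± 0.11). Of 14 hypoxia-responsive genes outside glycolysis, 2 were higher and 0 lower at the Flk1+ stage. The counts were 1 and 4 for HE1, 1 and 3 for HE2, and 2 and 3 for progenitors. Beside them, 6.97% (Flk1+), 9.82% (HE1), 5.64% (HE2) and 13.1% (progenitor) of all genes changed. Mxi1, a gene of this list, was above background on only 3 arrays. P4ha2, a collagen prolyl hydroxylase, was lower in HE1, HE2 and progenitors (progenitors -2.76 ± 0.28), Adm, a vascular peptide, in HE2 and progenitors (progenitors -2.14 ± 0.19), Ddit4, an inhibitor of mTOR signalling, in HE1 and progenitors (progenitors -1.48 ± 0.22), and Ndrg1 in HE1 (-1.45 ± 0.32). Bnip3, a mitochondrial death and mitophagy factor singled out after its values were seen, was the 1 gene of this list that was higher in all 4 populations (1.14 ± 0.16 in Flk1+ cells, 0.77 ± 0.16 in progenitors).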

How the data were processed

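RNA of 2 samples for each of 4 populations and 2 genotypes was measured on 16 one-colour Agilent SurePrint G3 mouse arrays. Per the labels, spot intensity was extracted with Feature Extraction (10.7.1.1; the file headers give 10.7.3.1). The authors deposited log2 values after normexp background correction and quantile normalisation in limma. The stated offset was 16, but the deposited log2 values matched the scanner intensity with an offset of 50 (largest difference 0.0258, against 1.63), so the minimum of log2 6 on at least 1 array also passed probes near background. Signal over background and the number of arrays limit precision: 67.0 to 77.1% of probes were well above background.

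From these values, duplicate spots were averaged, targets were named through RefSeq (20869 of 37932 matched by accession and 12 by symbol), and the brightest probe per gene was fitted with limma 3.58.1 in R 4.3.3 as 8 groups, with Benjamini-Hochberg adjustment over 37153 genes. The fit was tested on simulated data. The series describes replicates as independent and a legend as technical, so p-values cover only the spread between these samples. HE1, HE2 and progenitors were sorted from a combined harvest, but no source ties replicate numbers to a harvest, and same-numbered samples did not all deviate together (28 correlations, -0.169 to 0.49), so numbers were not taken as pairs. Named genes were all members, Sp1, the pathway genes Gapdh, Tpi1, Gpi1 and Pgam1, up to 4 genes per list with the largest called Sp1 effect, and the 5 genes of most similar pattern. The members and lists were chosen with earlier results of these data known. Alternatives covered the background correction, scaling, probe choice, filters, thresholds, tests, the replicate block, and leaving out each array.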

Additional observations from a re-analysis of the deposited data

Results flagged for a closer look

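Of the 10 members, the effect of the Sp1 mutation on Pgk1 differed between the 4 populations (moderated F test in limma, adjusted p = 0.0369). The Sp1-/- minus Sp1+/+ difference of Pgk1 was 0.77 in Flk1+ cells and -0.48 in HE1. In the mutant Flk1+ arrays Pgk1 was above both wild-type arrays, and in the mutant HE1 arrays below both. The call was lost without 12 of the 16 arrays, taken one at a time. Groups of 2 arrays are too small for a test of single outlying samples.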

How the results depend on the processing

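Of the 130 results for single members, 2 changed sign in an alternative while called in the main fit or that alternative. With the second brightest probe Pfkp was 0.18 from Flk1+ to HE1 and 0.36 from Flk1+ to progenitor in Sp1-/- cells. Sign changes of differences called in neither fit were not counted. Examples among the genotype differences were Hk2 in Flk1+ cells (-0.1 to 0.12 over the alternatives that kept all arrays) and Pfkp in HE1 (-0.4 to 0.5). The count of members called moved as follows. From HE1 to HE2 in Sp1+/+ cells (2) it was 0 with an offset of 16, without background correction, with the processed signal, by the study's rule, at an adjusted p of 0.01 or less, with only the arrays of the comparison or of the slide, and by a Student's t-test, and 1 with the second brightest probe. With the processed signal the count was 0 in Flk1+ cells, 1 in progenitors, 0 for the average and 0 for the F test. The mean over probes gave 1 in HE2, and the second brightest probe 0 for the average. The study's rule gave a count of 0 in Flk1+ cells and for the average, 4 and 3 in Sp1+/+ cells from Flk1+ to HE1 and to progenitor, and 1 for each later step in Sp1-/- cells. An adjusted p of 0.01 or less gave 1 in Flk1+ cells, 1 in progenitors, and 0 for the average and the F test. With only the arrays of the comparison the count was 0 in Flk1+ cells and from HE1 to HE2 in Sp1-/- cells. Student's t-test, which the methods name for comparing genotypes without a threshold, was run at the study's array limit, an unadjusted p of 0.01 or less, and gave a count of 0 in Flk1+ cells, 1 in HE2, 0 in progenitors, 4 from Flk1+ to progenitor in Sp1+/+ cells, and 5, 0 and 0 for the steps in Sp1-/- cells; after Benjamini-Hochberg adjustment it gave 0 in Flk1+ cells and progenitors, 7 from Flk1+ to progenitor in Sp1-/- cells, and 0 for each other step in both genotypes.

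Leaving out each array in turn gave a count of 0 to 2 in Flk1+ cells, 0 to 2 in HE1, 0 to 1 in HE2, 0 to 3 in progenitors, 1 to 3 for the average and 0 to 1 for the F test. In Sp1+/+ cells it gave a count of 7 to 8 from Flk1+ to HE1, 0 to 2 from HE1 to HE2, 0 from HE2 to progenitor and 7 from Flk1+ to progenitor, and in Sp1-/- cells 8 to 9, 2 to 3, 2 and 9 to 10.

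The replicate numbers were not taken as pairs. With the replicate block the count was 4 in Flk1+ cells, 2 for the average, 6 from HE1 to HE2 in Sp1-/- cells and 4 for the F test (Pgk1, and Hk1, Pfkp and Aldoa at adjusted p from limma of 0.0154, 0.0319 and 0.0378), so that the F-test calls of these 3 genes depend on the block, and 122 of 130 calls were unchanged. A slide block could not be fitted for genotype, since each genotype lay on 1 slide. With the processed signal the median over all genes moved to 0.19 in HE1 and 0.11 for the average, and to -0.11 from Flk1+ to HE1 and to progenitor in Sp1+/+ cells; the share of higher calls was 56.1% against 44.2% in HE1. Over all genes, the counts called were 2591 in Flk1+ cells, 3650 in HE1 and 2096 in HE2 (1194, 2380 and 1397 with the processed signal, and 590, 49 and 347 with only the arrays of the comparison), and 4862 in progenitors (7874 with only those arrays). They were 3971 and 1125 for the later steps in Sp1+/+ cells (2629 and 615 with the processed signal, 446 and 0 with only those arrays, and 415 for the last step with only the slide), and 10604 and 6898 for the first steps in Sp1-/- cells (5806 and 2115 with only those arrays). Signal over background limits the second Pfkp probe.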
